A study of Mus musculus with 4 samples.

Results

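The genes described here encode the constitutive proteasome, its caps and its dedicated helpers. They were chosen by symbol, as the protein-coding genes of the count table whose mouse symbol starts with Psma, Psmb, Psmc, Psmd, Psme, Psmf or Psmg and then a digit, without the immunoproteasome genes *Psmb8*, *Psmb9* and *Psmb10*, and with at least 10 counts in at least 2 of the 4 libraries. This gave 46 members, of 14554 genes tested and 41214 genes in the table. In all, 54 symbols had this form, of which 50 were protein coding and 47 were left once the 3 immunoproteasome genes were removed. *Psmb11*, which encodes the catalytic subunit of thymic epithelium, had 1 count in MIZ-1WT replicate 1 and 0 counts in the other libraries, and it was not tested. The 4 pseudogenes with such symbols had at most 6 counts in a library. *Psmc3ip* was taken in by its letters alone, since it encodes a DNA recombination factor and no part of the proteasome, so 45 of the members are proteasome genes. *Psma8*, which encodes an alpha subunit used in the testis, passed the count minimum only through the MIZ-1△POZ libraries and therefore had to differ, so counts are also given without it.

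RNA-seq was performed on unstimulated B220+ splenocytes, the B cell fraction of the spleen taken by magnetic selection on the surface marker B220 after lysis of red cells. MIZ-1△POZ mice carried MB1-Cre and Miz-1 floxPOZ on a C57BL/6 background, so that the POZ domain of the transcription factor MIZ-1 is removed where Cre is made from the *Cd79a* (Mb1) promoter, that is in B cells, and MIZ-1WT mice kept it. Each genotype had 2 biological replicates, and ages and sexes of the single animals were not given. The question was how expression differs between MIZ-1WT and MIZ-1△POZ B cells at steady state.

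The 26S proteasome degrades proteins that carry ubiquitin chains. Its 20S core is a stack of alpha and beta rings in which only 3 of the beta subunits cut peptides, and its 19S cap binds ubiquitin, removes the chain, and unfolds and feeds the substrate through a ring of ATPases. Cells of the immune system also make an immunoproteasome, in which those cutting subunits are replaced by inducible counterparts, and B cells rely on the proteasome for NF-κB activation and for the turnover of misfolded immunoglobulin.

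Levels are given as CPM, counts scaled to a total of 1000000 per library after TMM normalization, and differences as log2 fold changes of MIZ-1△POZ over MIZ-1WT. Adjusted p-values are those of the edgeR quasi-likelihood test after Benjamini-Hochberg adjustment across all tested genes, and a gene is said to have risen or fallen only where that value was under 0.05. Between 43026814 and 46387209 counts fell on genes in each library, and reads outside genes took 27.2% and 25.5% of the table in MIZ-1WT and 21.6% and 21.1% in MIZ-1△POZ. *Zbtb17*, which encodes MIZ-1, had 47.8 and 46.3 CPM in MIZ-1WT and 37.3 and 38.0 CPM in MIZ-1△POZ, a gene-level count that does not show the deleted exons. The libraries also differed in marker genes of other cells and cell states. All 16 macrophage markers were higher in MIZ-1△POZ (summed level 979 and 1303 CPM against 5833 and 3649 CPM), as were all 12 cycling markers (545 and 533 CPM against 1405 and 1231 CPM) and 6 of 7 plasma cell markers (879 and 1197 CPM against 2713 and 2544 CPM). Of 10 pan-B markers 7 were lower and 1 was higher (12167 and 12515 CPM against 10850 and 11422 CPM). B cell markers were thus high in all libraries, with markers of other cells beside them. Of 12 T cell markers 1 was higher (71 to 92 CPM), of 6 tested neutrophil markers 2 were higher with *Elane*, *Ly6g* and *Mpo* at 4 counts or fewer in each library, and none of 8 erythroid markers passed (0 at an unadjusted p under 0.05 and 0 with DESeq2). *Xist* was high in both MIZ-1△POZ libraries and 4 Y-linked genes in both MIZ-1WT libraries, so genotype and sex cannot be told apart. The Y-linked genes were not absent from MIZ-1△POZ, with means from 5.79 (*Uty*) to 14.2 CPM (*Ddx3y*), against 113 and 359 CPM in MIZ-1WT. *Xist* had a mean of 1.28 CPM in MIZ-1WT and 866 CPM in MIZ-1△POZ. In bulk RNA, fewer cells of a type and less RNA per cell cannot be told apart either. The part of these differences in the results below was not tested.

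Most proteasome genes differed little between the genotypes. The share that rose was near that of all tested genes, and the share that fell was lower. Of the 46 members 10 rose (21.7%) and 2 fell, in all 26.1% of them. Of all tested genes 40.0% passed, 21.1% upwards and 18.9% downwards. The genes that rose were the core subunits *Psma1*, *Psma5*, *Psma8*, *Psmb2* and *Psmb4*, the cap subunits *Psmc1*, *Psmd2* and *Psmd14*, the activator subunit *Psme1* and the assembly chaperone *Psmg1*. Those that fell were the lid subunit *Psmd11* and the assembly chaperone *Psmd5*. Without *Psmc3ip* and *Psma8*, 9 rose (20.5%) and 2 fell of 44, or 25% in all.

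The changes were small. Without *Psma8* no member moved by more than 0.42 on the log2 scale, and the median log2 fold change of all 46 was 0.06, with quartiles of -0.04 and 0.16. Over all tested genes the median was -0.01 with quartiles of -0.23 and 0.33, and over those with a mean of at least 30 RPM (CPM without the TMM step) it was -0.08 with quartiles of -0.24 and 0.10. The 95% confidence intervals of the 34 members that did not pass lay between -0.33 and 0.58. By the limits the study used, a log2 fold change of at least 0.6 with an unadjusted p under 0.05, only *Psma8* passed, against 20.3% of all tested genes.

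Both MIZ-1△POZ values lay above both MIZ-1WT values in 21 members (45.7%, against 37.2% of all tested genes), below them in 10 members (21.7%, against 37.6%), and overlapped with them in 15. Together the 46 members took 3958 and 4072 CPM in MIZ-1WT and 4336 and 4134 CPM in MIZ-1△POZ, so the summed level was slightly higher in both MIZ-1△POZ libraries. The gap between the nearest libraries of the genotypes was smaller than the gap within MIZ-1△POZ.

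**Figure D1:**
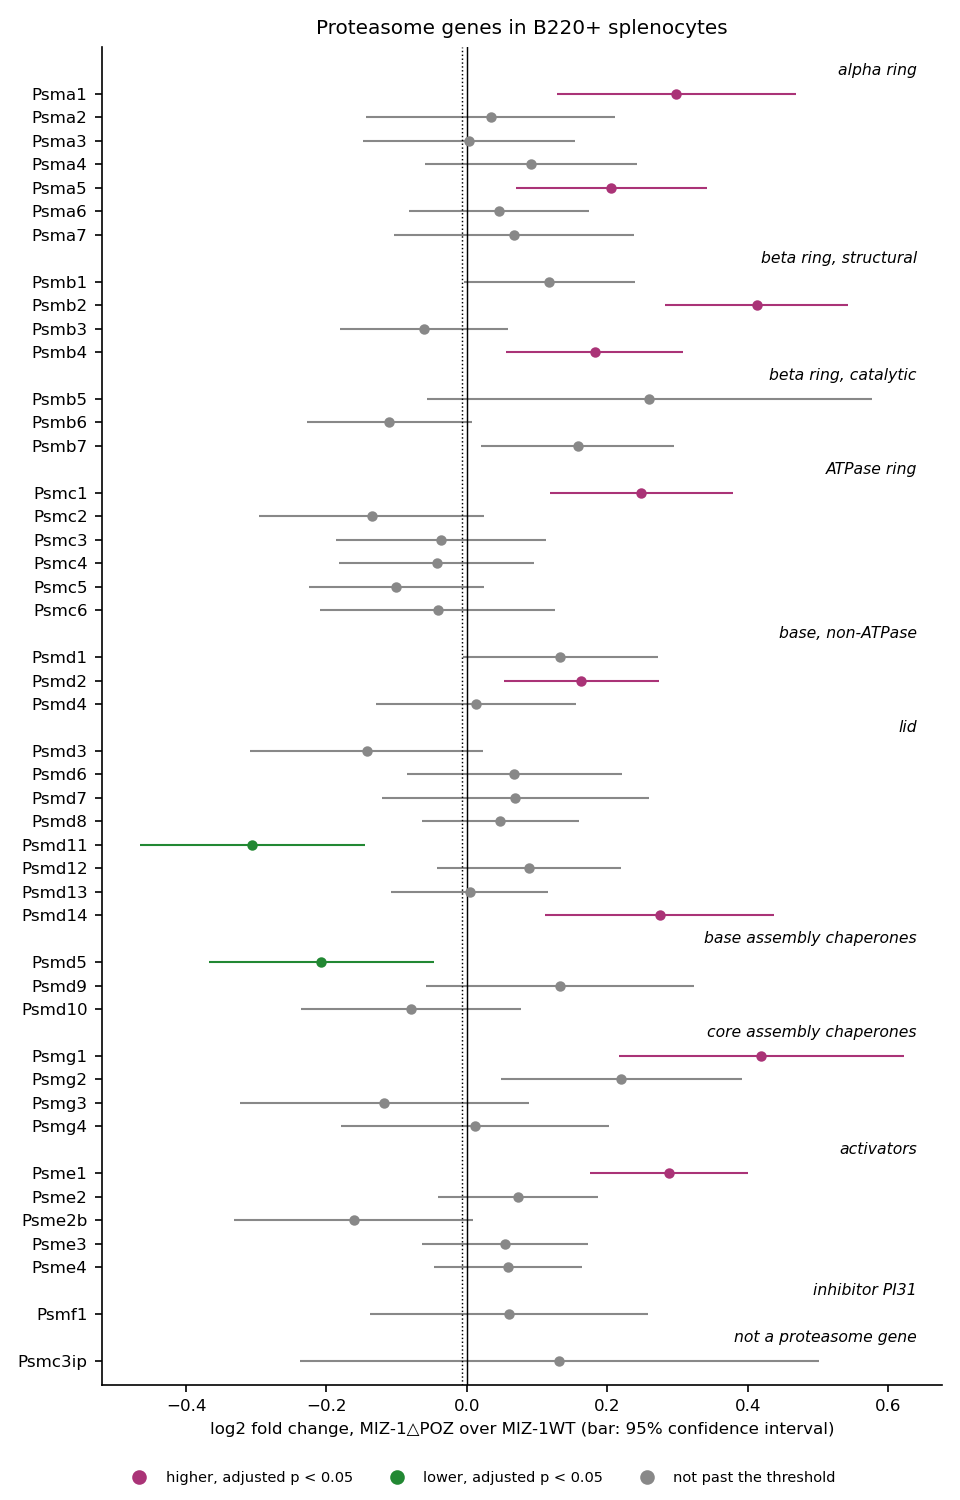
Log2 fold change of MIZ-1△POZ over MIZ-1WT (x axis) for 45 members, grouped by role, with bars for the 95% confidence interval and 2 libraries per genotype. *Psma8* (1.91) is left out for scale, the dotted line marks the median of all tested genes (-0.01), and all points lie between -0.31 and 0.42.

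How many genes passed depended on single libraries and on the genes compared. Without MIZ-1WT replicate 1 only 1 member rose and 0 fell (6 and 1 at an unadjusted p under 0.05), with 9.39% of all tested genes higher and 5.75% lower. Without MIZ-1WT replicate 2, 3 rose and 0 fell (10 and 1 unadjusted), with 11.8% of all tested genes higher and 7.59% lower. Without MIZ-1△POZ replicate 1, 6 rose and 1 fell (18% and 15.3% of all tested genes), and without MIZ-1△POZ replicate 2, 13 rose and 1 fell (20.7% and 18.7%). Each such fit leaves 1 library in a genotype, which is assumed to vary like the other genotype. A correction for GC content and exon length gave 8 members that rose and 3 that fell, against 22.4% and 16.3% of the genes in that fit. Since proteasome genes are well expressed, the fit was also made over the 6052 genes with a mean of at least 30 RPM. There 12 of 36 members rose and 1 fell (36.1%), against 45.4% of these genes in either direction, 24.2% upwards and 21.2% downwards. The median log2 fold change of these 6052 genes was -0.08 in the main fit and -0.0026 in this one, so values lie higher in this fit.

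The alpha ring forms the gate of the core through which substrates enter. Its 7 genes without *Psma8* all had a positive log2 fold change, where the median of all tested genes was -0.01, and 2 of them rose. *Psma8* also rose, but its direction was fixed by the count minimum. *Psma1* (ENSMUSG00000030751, chr7:114264606-114276118) had 140 and 138 CPM in MIZ-1WT and 182 and 160 CPM in MIZ-1△POZ, so that both MIZ-1△POZ libraries lay above both controls, replicate 1 further than replicate 2. Its log2 fold change was 0.30 (SE 0.07, adjusted p = 0.0198), an increase of 23.0%. The call was lost without MIZ-1WT replicate 1 or 2 (adjusted p = 0.104 and 0.111).

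*Psma5* (ENSMUSG00000068749, chr3:108256926-108279974) had 59.7 and 62.5 CPM in MIZ-1WT and 71.9 and 69.0 CPM in MIZ-1△POZ, again without overlap, and a log2 fold change of 0.21 (SE 0.06, adjusted p = 0.0315). It did not pass without MIZ-1WT replicate 1, MIZ-1WT replicate 2 or MIZ-1△POZ replicate 1 (adjusted p = 0.195, 0.0988 and 0.0834) or with the GC and length correction (0.0678). It shares exon positions with *1700010K24Rik* on the opposite strand. Whether their reads were told apart by strand is not known, as the strand setting of the counting is not given. *Psma8* had 5 and 5 counts in MIZ-1WT and 27 and 14 counts in MIZ-1△POZ, under 1 CPM in every library. Its log2 fold change was 1.91 (SE 0.51, adjusted p = 0.0304 with edgeR and 0.116 with DESeq2), and it did not pass without MIZ-1WT replicate 1, MIZ-1WT replicate 2 or MIZ-1△POZ replicate 1 (adjusted p = 0.127, 0.112 and 0.133).

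The other 5 alpha genes did not pass, with log2 fold changes from 0.0034 (*Psma3*) to 0.09 (*Psma4*). *Psma7*, which the study names among its stimulation results, had 137 and 149 CPM in MIZ-1WT and 157 and 142 CPM in MIZ-1△POZ. The 2 genotypes overlapped in these unstimulated cells, and the log2 fold change was 0.07 (95% confidence interval -0.10 to 0.24, adjusted p = 0.479). *Psma6* had 121 and 129 CPM in MIZ-1WT and 131 and 127 CPM in MIZ-1△POZ, with a log2 fold change of 0.05 (adjusted p = 0.519).

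Of the 4 beta subunits without a cutting site, which build the walls of the core, 2 rose. *Psmb2* (ENSMUSG00000028837, chr4:126677630-126709714) had 44.5 and 44.7 CPM in MIZ-1WT and 60.3 and 58.4 CPM in MIZ-1△POZ. The replicates of each genotype lay close together and far from the other genotype. The log2 fold change was 0.41 (SE 0.05, adjusted p = 0.00347), an increase of 33.1%, and *Psmb2* was the only member called in every alternative fit and with each library left out (log2 fold change from 0.39 to 0.45).

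*Psmb4* (ENSMUSG00000005779, chr3:94884093-94886961) had 154 and 163 CPM in MIZ-1WT and 184 and 176 CPM in MIZ-1△POZ, with a log2 fold change of 0.18 (SE 0.05, adjusted p = 0.0358). The genotypes did not overlap, but the call was lost without MIZ-1WT replicate 1, MIZ-1WT replicate 2 or MIZ-1△POZ replicate 1 (adjusted p = 0.228, 0.0974 and 0.0687) and with the GC and length correction (0.0751). *Psmb1* (0.12, adjusted p = 0.109) and *Psmb3* (-0.06, adjusted p = 0.355) did not pass.

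None of the 3 catalytic subunits passed with edgeR or with DESeq2, and 1 of them, *Psmb7*, had an unadjusted p under 0.05. *Psmb5*, which carries the chymotrypsin-like site, had 19.2 and 24.8 CPM in MIZ-1WT and 26.8 and 25.8 CPM in MIZ-1△POZ. Its MIZ-1WT replicates lay far apart, and the log2 fold change of 0.26 had a wide interval (-0.06 to 0.58, adjusted p = 0.157). Without MIZ-1WT replicate 2 it was 0.46 and passed (adjusted p = 0.0424).

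*Psmb6*, which carries the caspase-like site, had 101 and 105 CPM in MIZ-1WT and 96.2 and 93.9 CPM in MIZ-1△POZ. Both MIZ-1△POZ values were below both controls, with a log2 fold change of -0.11 (interval -0.23 to 0.01, adjusted p = 0.116). *Psmb7*, which carries the trypsin-like site, had 78.7 and 81.3 CPM in MIZ-1WT and 92.2 and 86.2 CPM in MIZ-1△POZ, all above the controls. Its log2 fold change was 0.16 (interval 0.02 to 0.30, adjusted p = 0.0688), and it shares exon positions with *Nek6* on the opposite strand. *Psmb7* passed in 3 alternatives, namely the genes of at least 30 RPM (adjusted p = 0.0241), the GC and length correction (0.0346) and the fit without MIZ-1△POZ replicate 2 (0.0218), and *Psmb6* fell with that correction (adjusted p = 0.0481).

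In the 14 core genes without *Psma8*, 4 rose and 0 fell, with 0 lower also at an unadjusted p under 0.05 and with DESeq2, and the median log2 fold change was 0.10. In the 17 cap subunits among the members 3 rose and 1 fell, with a median of 0.01. This is 28.6% of the core genes and 23.5% of the cap genes. Of all tested genes 40.0% passed, 21.1% upwards and 18.9% downwards. The difference between core and cap was not tested. Cap subunits not named Psm, *Sem1* and *Adrm1*, are given with the partner genes below and are not counted here.

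The ATPase ring pulls substrates into the core. *Psmc1* (ENSMUSG00000021178, chr12:100110154-100123405) had 89.1 and 89.7 CPM in MIZ-1WT and 110 and 103 CPM in MIZ-1△POZ, and was the 1 of 6 ring genes that rose (log2 fold change 0.25, SE 0.05, adjusted p = 0.0155). It did not pass without MIZ-1WT replicate 1 or 2 (adjusted p = 0.112 and 0.0952). The other 5 ATPase genes all had negative log2 fold changes, from -0.14 (*Psmc2*) to -0.04 (*Psmc3*), and none passed (0 at an unadjusted p under 0.05 and 0 with DESeq2).

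*Psmd1*, *Psmd2* and *Psmd4* are the other members in the base of the cap, where *Psmd4* binds ubiquitin and the others dock ubiquitin receptors and carriers. *Psmd2* (ENSMUSG00000006998, chr16:20651652-20663414) had 181 and 183 CPM in MIZ-1WT and 208 and 200 CPM in MIZ-1△POZ, with a log2 fold change of 0.16 (SE 0.04, adjusted p = 0.0335). The genotypes did not overlap, but *Psmd2* did not pass without MIZ-1WT replicate 1, MIZ-1WT replicate 2 or MIZ-1△POZ replicate 1 (adjusted p = 0.190, 0.160 and 0.0676) or with the GC and length correction (0.0522). *Psmd1* (0.13, adjusted p = 0.111) and *Psmd4* (0.01, adjusted p = 0.881) did not pass.

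Of the 8 lid members 1 rose and 1 fell, and *Sem1*, a lid subunit not named Psm, is given below. *Psmd14* (ENSMUSG00000026914, chr2:61711694-61800376), the enzyme that cuts the ubiquitin chain off the substrate, had 108 and 113 CPM in MIZ-1WT and 141 and 126 CPM in MIZ-1△POZ, with a log2 fold change of 0.27 (SE 0.07, adjusted p = 0.0227). *Psmd11* (ENSMUSG00000017428, chr11:80428615-80473248), a scaffold that holds lid and core together, had 48.5 and 46.8 CPM in MIZ-1WT and 37.0 and 40.1 CPM in MIZ-1△POZ, with a log2 fold change of -0.31 (SE 0.06, adjusted p = 0.0153). The 2 genes thus moved in opposite directions, each without overlap between the genotypes. *Psmd14* did not pass without MIZ-1WT replicate 1 or 2 (adjusted p = 0.146 and 0.0892), and *Psmd11* did not pass without MIZ-1WT replicate 1, MIZ-1WT replicate 2 or MIZ-1△POZ replicate 1 (adjusted p = 0.0996, 0.0635 and 0.0502). The other 6 lid genes ranged from -0.14 (*Psmd3*) to 0.09 (*Psmd12*) and did not pass.

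The promoter windows of 4 called members are shown so that the letters upstream of genes that rose (*Psma1*, *Psmc1*, *Psmd14*) can be set beside those of a gene that fell (*Psmd11*). Each runs 5′ to 3′ on the strand of the gene, from 250 bases before to 50 bases after the RefSeq transcription start (GRCm38.p6). Capitals mark the CCAAT box or its reverse complement, and the last pair in the *Psmd14* window overlaps. The windows are *Psma1* at chr7:114276067-114276366 on the minus strand, *Psmc1* at chr12:100109952-100110251 on the plus strand, *Psmd14* at chr2:61711444-61711743 on the plus strand and *Psmd11* at chr11:80428365-80428664 on the plus strand.
Psma1: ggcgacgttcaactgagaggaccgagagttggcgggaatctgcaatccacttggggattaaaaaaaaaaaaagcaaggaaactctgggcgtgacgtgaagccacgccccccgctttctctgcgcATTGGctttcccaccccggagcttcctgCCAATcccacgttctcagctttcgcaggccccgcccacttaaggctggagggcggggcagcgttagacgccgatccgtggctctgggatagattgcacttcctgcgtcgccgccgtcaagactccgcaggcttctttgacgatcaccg
Psmc1: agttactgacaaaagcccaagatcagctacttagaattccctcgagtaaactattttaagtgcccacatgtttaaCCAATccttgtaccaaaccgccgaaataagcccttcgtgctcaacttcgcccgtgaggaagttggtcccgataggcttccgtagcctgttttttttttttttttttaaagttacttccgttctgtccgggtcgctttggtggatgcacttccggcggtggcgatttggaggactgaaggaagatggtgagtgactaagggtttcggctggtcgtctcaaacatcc
Psmd14: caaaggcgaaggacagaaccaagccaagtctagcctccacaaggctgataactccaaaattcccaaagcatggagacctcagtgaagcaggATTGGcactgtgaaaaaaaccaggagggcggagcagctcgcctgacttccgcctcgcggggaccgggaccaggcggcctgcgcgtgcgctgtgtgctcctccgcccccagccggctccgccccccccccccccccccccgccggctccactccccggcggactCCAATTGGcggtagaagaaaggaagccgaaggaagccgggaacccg
Psmd11: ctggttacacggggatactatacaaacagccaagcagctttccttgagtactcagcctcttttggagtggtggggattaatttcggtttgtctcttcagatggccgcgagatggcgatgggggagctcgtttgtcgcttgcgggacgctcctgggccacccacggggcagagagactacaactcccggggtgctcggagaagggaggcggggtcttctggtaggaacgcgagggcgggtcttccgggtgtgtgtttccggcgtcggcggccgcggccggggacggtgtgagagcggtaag
The CCAAT box was found 2 times in *Psma1*, 1 time in *Psmc1*, 3 times in *Psmd14* and 0 times in *Psmd11*. The shown genes that rose are the only called genes whose windows hold it. It was also missing from *Psma5*, *Psmb4*, *Psmd2*, *Psme1* and *Psmg1*, which rose, and from *Psmd5*, which fell. Windows were found for 38 of the 46 members, and 13 of them held CCAAT (34.2%, against 41.1% of the 27025 genes with a window). The antioxidant response element TGACNNNGC, bound by NFE2L1, the factor that raises proteasome genes when the proteasome is inhibited, stood in 6 of the 38 (15.8%, against 14.0%), none of them among the 10 called genes that have a window, which leave out *Psmb2* and *Psma8*. The E-box CACGTG stood in 3 (7.89%, against 8.09%) and the core of a MIZ-1 motif, ATCGAT, in 0 (against 1.02%). Both strands were searched, and a match is a description of these letters alone.

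**Figure D2:**
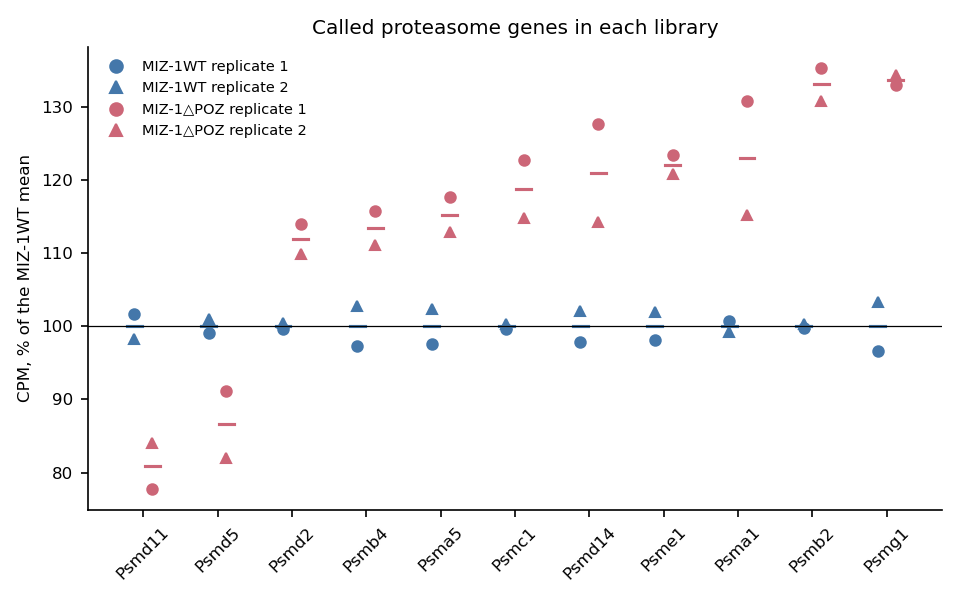
CPM of each called member except *Psma8* in each library, as a percentage of the MIZ-1WT mean of that gene (y axis), with circles for replicate 1, triangles for replicate 2 and short lines for the mean of 2 libraries. In all 11 genes, which were called on these same libraries, both MIZ-1△POZ libraries lie on one side of both MIZ-1WT libraries. Of all tested genes 37.2% lay above in this way and 37.6% below. The 11 genes run from *Psmd11* (-19.1% by the fitted fold change) to *Psmg1* (33.7%).

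The proteasome is built with the help of chaperones. Of the 4 that assemble the core, *Psmg1* (ENSMUSG00000022913, chr16:95979933-95990960) rose, from 12.4 and 13.2 CPM in MIZ-1WT to 17.0 and 17.2 CPM in MIZ-1△POZ (log2 fold change 0.42, SE 0.08, adjusted p = 0.0122). It did not pass without MIZ-1WT replicate 1 or 2 (adjusted p = 0.0966 and 0.0565). *Psmg2*, its partner in a heterodimer, had 24.4 and 25.1 CPM against 29.8 and 27.9 CPM, also without overlap, and lay just outside the threshold (0.22, adjusted p = 0.0503). It passed without immunoglobulin gene segments (adjusted p = 0.0468) and without MIZ-1△POZ replicate 2 (0.0318). *Psmg3* (-0.12) and *Psmg4* (0.01), which form the other heterodimer, did not pass.

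Of the 3 chaperones of the base, *Psmd5* (ENSMUSG00000026869, chr2:34849734-34874968) was just inside the threshold and lower, with 85.9 and 87.6 CPM in MIZ-1WT and 79.1 and 71.2 CPM in MIZ-1△POZ (log2 fold change -0.21, SE 0.06, adjusted p = 0.0493). It did not pass with DESeq2 (adjusted p = 0.0640), nor without MIZ-1WT replicate 1, MIZ-1WT replicate 2 or MIZ-1△POZ replicate 2 (adjusted p = 0.170, 0.204 and 0.123), the last of which brought the log2 fold change to -0.12. *Psmd9* (0.13) did not pass. *Psmd10*, the only member on the X chromosome, had 32.7 and 34.4 CPM in MIZ-1WT and 31.4 and 32.1 CPM in MIZ-1△POZ (log2 fold change -0.08, adjusted p = 0.356).

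Among the activators, which open the core in place of the cap, *Psme1* (ENSMUSG00000022216, chr14:55578123-55581529) rose. It had 176 and 183 CPM in MIZ-1WT and 222 and 217 CPM in MIZ-1△POZ, with a log2 fold change of 0.29 (SE 0.05, adjusted p = 0.00633). It did not pass without MIZ-1WT replicate 1 (adjusted p = 0.0698), and it shares exon positions with *Emc9* on the opposite strand. *Psme2*, whose protein forms a mixed ring with that of *Psme1*, had 115 and 115 CPM in MIZ-1WT and 124 and 119 CPM in MIZ-1△POZ (0.07, adjusted p = 0.252), and its near-identical copy *Psme2b* had 38.0 and 37.1 CPM against 32.1 and 35.1 CPM (-0.16, adjusted p = 0.114). As reads that match both copies alike are not counted on either, both values are uncertain. *Psme2b* also shares exon positions with *9930111J21Rik1* on the same strand. *Psme3* (0.05) and *Psme4* (0.06), which encode nuclear activators, and *Psmf1* (0.06), which encodes the inhibitor PI31, did not pass.

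Subunits of one complex are needed in equal numbers, but their mRNA levels were not equal. In CPM per kilobase of exon (RPKM), the highest member was *Psma6*, with 97.8 and 104 RPKM in MIZ-1WT and 106 and 103 RPKM in MIZ-1△POZ, and the lowest was *Psma8* at a mean of 0.112 RPKM, followed by *Psmd9* at 2.38. In the 14 core genes without *Psma8* the highest level was 4.59 and 4.39 times the lowest in MIZ-1WT and 3.93 and 4.07 times in MIZ-1△POZ, with *Psma6* highest and *Psmb5* or *Psmb7* lowest. Per coding length the same figure was 9.92 and 8.05 times in MIZ-1WT and 8.04 and 8.04 times in MIZ-1△POZ, with *Psmb1* highest and *Psmb5* lowest. The spread within the core per exon length, as a coefficient of variation, was between 42.5% and 44.1% in all libraries.

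Per exon length *Psmd14* was the highest and *Psmd11* the lowest lid gene in every library, at 5.05 and 5.45 times in MIZ-1WT and 8.61 and 7.12 times in MIZ-1△POZ, which restates that one rose and the other fell. Per coding length *Psmd7* was the lowest of the lid members. Their range, without *Sem1*, was 4.19 and 4.69 times in MIZ-1WT and 5.61 and 4.64 times in MIZ-1△POZ, which overlap. Union exon length counts long untranslated ends in full, so both the order of the genes and the range depend on the length used. Reads without a unique alignment are left out of the counts, and how many each gene lost was not tested. Comparisons of level between genes, here and in the ratios below, carry that uncertainty too. With 2 libraries against 2 an exact permutation test cannot reach p = 0.05, so no test of these ratios was made.

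**Figure D3:**
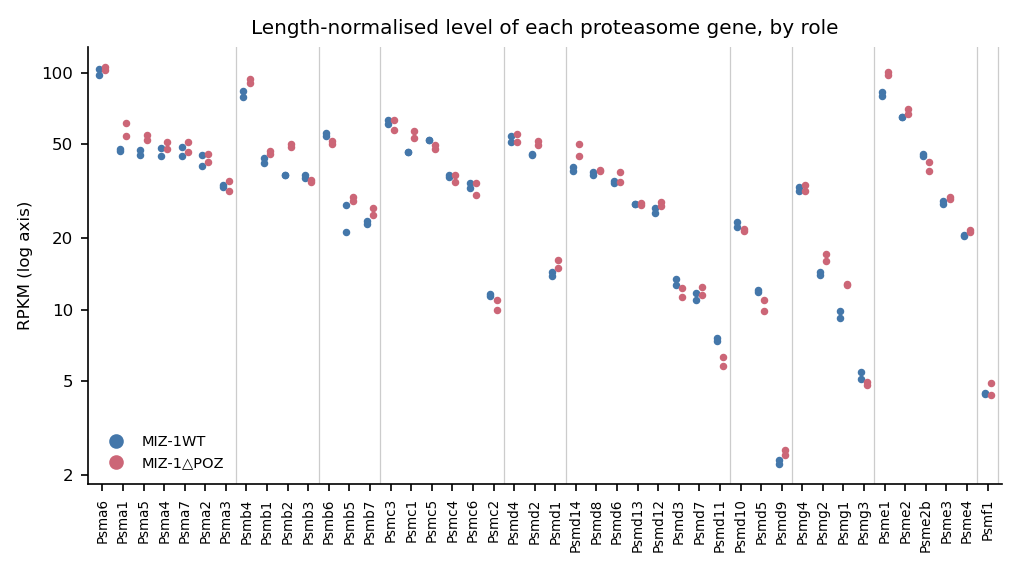
RPKM on a log axis (y axis) of 44 members in the 4 libraries, ordered by level within each role and with roles parted by lines in the order alpha ring, structural beta, catalytic beta, ATPase ring, other base, lid, base chaperones, core chaperones, activators and inhibitor. Levels range from 2.38 (*Psmd9*) to 103 (*Psma6*) on average, a far wider range than that of any single gene over the 4 libraries.

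The immunoproteasome genes were far from silent in these B220+ libraries. *Psmb9*, which takes the place of *Psmb6*, rose from 147 and 147 CPM in MIZ-1WT to 167 and 175 CPM in MIZ-1△POZ (log2 fold change 0.22, SE 0.05, adjusted p = 0.0147), and did not pass without MIZ-1WT replicate 1 or 2 (adjusted p = 0.110 and 0.101). *Psmb8*, the counterpart of *Psmb5*, had 319 and 323 CPM in MIZ-1WT and 349 and 351 CPM in MIZ-1△POZ (0.12, adjusted p = 0.0660). *Psmb10*, the counterpart of *Psmb7*, had 108 and 108 CPM against 113 and 111 CPM (0.05, adjusted p = 0.357). *Psmb9* shares exon positions with *Tap1* and *Psmb8* with *Gm20496*, each on the opposite strand. Whether their reads were told apart by strand is not known, as the strand setting of the counting is not given. All 3 immunoproteasome genes had both MIZ-1△POZ values above both controls, as did 37.2% of all tested genes. *Psmb8* and *Psmb10* passed in the fit over genes of at least 30 RPM (adjusted p = 0.0191 and 0.0450), where 24.2% of genes rose. Their log2 fold changes were 0.20 and 0.13 in that fit, in which values lie higher than in the main fit.

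Set against their counterparts per exon length, *Psmb5* and *Psmb7* lay below *Psmb8* and *Psmb10* in every library. The log2 ratio of *Psmb5* to *Psmb8* was -2.15 and -1.79 in MIZ-1WT and -1.79 and -1.85 in MIZ-1△POZ, which overlap, and per coding length it was -3.99 and -3.64 against -3.64 and -3.70. The ratio of *Psmb7* to *Psmb10* was -1.46 and -1.42 in MIZ-1WT and -1.30 and -1.37 in MIZ-1△POZ, and per coding length -0.47 and -0.44 against -0.32 and -0.39. The ratio of *Psmb6* to *Psmb9* moved the other way, from 0.43 and 0.48 in MIZ-1WT to 0.17 and 0.07 in MIZ-1△POZ, a difference of -0.33 in the means (0.45 ± 0.04 against 0.12 ± 0.07, SD, n = 2). Per coding length the same ratio was -0.62 and -0.57 against -0.87 and -0.97. Which of the 2 genes is higher thus depends on the length used, while the difference stays -0.33. Each ratio includes a gene that shares exon positions with another gene on the opposite strand (*Psmb8*, *Psmb9* or *Psmb7*), so its value carries that uncertainty.

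**Figure D4:**
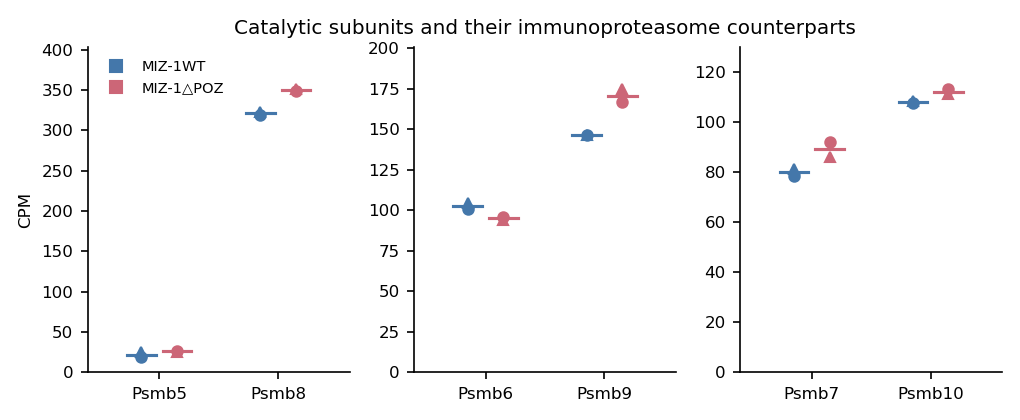
CPM (y axis, from 0) of each catalytic subunit of the constitutive proteasome beside its immunoproteasome counterpart in the 4 libraries, with circles for replicate 1, triangles for replicate 2 and lines for the mean of 2. *Psmb8* lies between 319 and 351 CPM and *Psmb5* between 19.2 and 26.8 CPM, and *Psmb6* is lower and *Psmb9* higher in MIZ-1△POZ.

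Genes that work with the proteasome moved in both directions. Of 29 such genes in 4 lists 5 rose and 5 fell, with a median log2 fold change of 0.01. This is 34.5% of them, where 40.0% of all tested genes passed. Among 12 proteasome-bound factors not named Psm, *Ecpas*, an adaptor between cap and core, rose from 152 ± 1.58 to 188 ± 0.715 CPM (SD, n = 2; log2 fold change 0.30, adjusted p = 0.00443). *Pomp*, which matures the core, rose from 72.5 ± 3.05 to 84.2 ± 2.82 CPM (0.21, adjusted p = 0.0298), and *Sem1*, the smallest lid subunit, rose from 84.8 ± 0.990 to 96.3 ± 1.81 CPM (0.18, adjusted p = 0.0266). The ubiquitin receptor *Adrm1* fell from 50.3 ± 2.03 to 43.1 ± 2.58 CPM (-0.22, adjusted p = 0.0461 with edgeR and 0.0622 with DESeq2). The proteasome-bound ligase *Ube3c* fell from 127 ± 1.19 to 106 ± 2.46 CPM (-0.25, adjusted p = 0.00928) and the zinc finger activator *Zfand5* from 151 ± 2.83 to 124 ± 2.18 CPM (-0.28, adjusted p = 0.00649). *Adrm1*, *Pomp* and *Sem1* did not pass without MIZ-1WT replicate 1, MIZ-1WT replicate 2 or MIZ-1△POZ replicate 1 (adjusted p from 0.0513 to 0.220), *Ube3c* without MIZ-1WT replicate 1 or 2 (0.0894 and 0.0689), and *Ecpas* and *Zfand5* without MIZ-1WT replicate 1 (0.0551 and 0.0715).

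NFE2L1 is cut free by DDI2 after NGLY1 has removed its glycans, and then drives proteasome genes. None of the 4 genes of this group passed with edgeR or DESeq2, and 1 (*Ddi2*, 0.11) had an unadjusted p under 0.05. *Nfe2l1* itself had a log2 fold change of 0.10 (adjusted p = 0.122).

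Of 10 genes that supply ubiquitin or carry ubiquitinated proteins 1 rose and 2 fell. *Vcp*, the segregase that pulls proteins out of complexes and membranes, rose from 140 ± 1.84 to 181 ± 5.26 CPM (0.37, adjusted p = 0.00328). It shares exon positions with *1700022I11Rik* on the opposite strand. *Ubb*, which encodes a chain of ubiquitin units, had a log2 fold change of -0.18 and did not pass (adjusted p = 0.0804). The shuttle *Ubqln1* fell from 213 ± 8.05 to 173 ± 7.09 CPM (-0.30, adjusted p = 0.00912) and *Uba6*, a ubiquitin-activating enzyme, from 105 ± 0.746 to 90.2 ± 1.39 CPM (-0.23, adjusted p = 0.0130). *Uba6* did not pass with the GC and length correction (-0.11, adjusted p = 0.111) or without MIZ-1WT replicate 1 or 2 (adjusted p = 0.109 and 0.0879), and *Ubqln1* did not pass without MIZ-1WT replicate 1 (0.0807). Without MIZ-1WT replicate 1, 1 gene of all 4 lists rose and 0 fell (3 and 4 at an unadjusted p under 0.05), and without MIZ-1WT replicate 2, 2 rose and 2 fell.

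**Figure D5:**
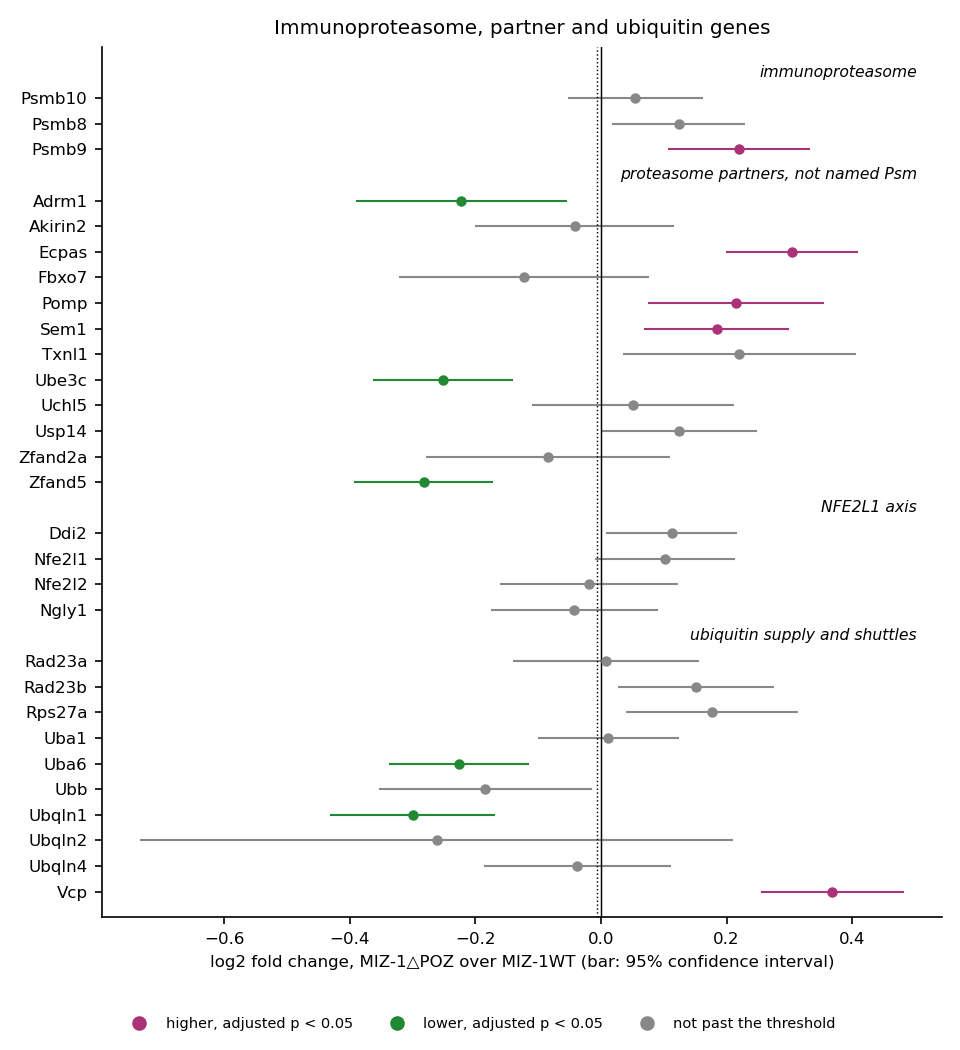
Log2 fold change of MIZ-1△POZ over MIZ-1WT (x axis) with its 95% confidence interval for 29 genes that are not members, in 4 lists, with 2 libraries per genotype. The dotted line marks the median of all tested genes (-0.01), and the genes that passed lie from -0.30 (*Ubqln1*) to 0.37 (*Vcp*).

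Most of the members also belong to the BCR signaling list of the study, as curated lists of B cell receptor signaling take in the proteasome through NF-κB. It holds 31 of the 46 members, or 67.4% of the members and 11.6% of the list. Of these 31, 8 rose and 1 fell, with a median log2 fold change of 0.07, and of the 15 outside it 2 rose and 1 fell, with a median of 0.06. The 2 that rose outside it were *Psmg1* and *Psma8*, and *Psma8* had to differ by the count minimum. In all tested genes 21.1% rose and 18.9% fell.

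Between replicates of one genotype the median log2 difference of the 44 proteasome genes without *Psma8* was -0.04 in MIZ-1WT and 0.05 in MIZ-1△POZ. It was -0.38 and 0.67 in the macrophage markers, -0.12 and 0.03 in the plasma cell markers and 0.03 and 0.18 in the cycling markers. In the T cell markers it was 0.43 and -0.17, in the neutrophil markers 0.40 and -0.63 and in the erythroid markers -0.30 and -1.43. The pan-B markers had -0.04 and -0.09 and the sex markers -0.02 and -0.06. The part of these differences in the results was not tested.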

How the data were processed

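RNA-seq of B220+ splenocytes from MIZ-1WT and MIZ-1△POZ mice was analyzed, with 2 libraries per genotype, grouped as labelled. The authors trimmed paired reads with Trimmomatic, mapped them to mm10 with TopHat2 (version 2.1.0 per the labels) and counted them on Ensembl genes with HTSeq. They deposited raw counts, neither normalized nor pooled. The library kit was a stranded one, but the strand setting of the counting is not given in the sources used here. Reads left out as ambiguous between genes took from 0.281% to 0.302% of the table in each library.

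Symbols, positions and lengths came from GENCODE for GRCm38 (mm10), and promoters from RefSeq. The 14554 genes that reached 10 counts in 2 or more libraries were tested with the quasi-likelihood test of edgeR 4.0.16 in R 4.3.3, with TMM and Benjamini-Hochberg adjustment at 0.05. CPM and RPKM used TMM library sizes. HTSeq summary lines were left out. The fit was tested on simulated data. Alternatives were DESeq2 size factors, the Wald test of DESeq2 1.42.0, no filter, at least 30 RPM, no immunoglobulin segments, a replicate block and leaving out each library. A GC and length correction was chosen after seeing the data. Replicates differed by more than counting noise. P-values measure the spread between these libraries.

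Members, gene lists and tests were chosen with earlier results of these data known. By rule, values in every library are given for called members, the catalytic subunits and their counterparts, *Psmd10*, *Psma7* and the members of highest and lowest level, and called partner genes are named. *Psmg2*, *Psme2*, *Psme2b* and *Ubb* were added after their values were seen. Some genes of the partner lists are not reported here, and the counts leave them out.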

Additional observations from a re-analysis of the deposited data

How the results depend on the processing

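All 12 called members kept their sign in every fit. Besides the main fit, 7 of the 12 were called in each alternative that holds them when no library was left out (*Psma1*, *Psmb2*, *Psmc1*, *Psmd11*, *Psmd14*, *Psme1* and *Psmg1*), and only *Psmb2* also with each library left out. The number of members that rose (10) ranged from 1 to 13 with one library left out, and the number that fell (2) from 0 to 1. Members that fell numbered 1 with DESeq2 size factors, 1 with the Wald test of DESeq2, 1 at a mean of at least 30 RPM and 1 with the replicate block, where *Psmd5* was lost each time. The median log2 fold change of the members (0.06) became 0.13 over genes of at least 30 RPM, and ranged from 0.04 to 0.09 with one library left out. Partner genes that rose (5) numbered 13 over genes of at least 30 RPM, 9 with the GC and length correction and 3 with the replicate block, and from 1 to 7 with one library left out. Partner genes that fell (5) ranged from 0 to 6. The causes were not tested.

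Replicate numbers are shared by the genotypes but name no common animal, batch or day, and the deviations of same-numbered libraries correlated at -0.07. With the replicate block 7 members rose and 1 fell, and *Psma5*, *Psmb4* and *Psmd2* were the others lost, as they were with the GC and length correction. *Psmb5*, *Psmb6* and *Psmb7* changed their side of the threshold in some fits, as given above. With 2 libraries per genotype, changes as small as those of most members rest on few degrees of freedom. Per coding length, the differences in log2 ratio of the 3 catalytic pairs between the genotypes kept their values.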
